A study of Mus musculus with 4 samples.

Results

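APC2 is one of 12 clusters of nuclei in single-nucleus ATAC-seq of mouse inguinal white adipose tissue (iWAT), and the study names it as the second cluster of adipocyte progenitor cells. Its members were taken as the nuclei that carry the label APC2 in the deposited annotation, which gave 562 of 32552 nuclei, or 1.73% of all nuclei. The study marked this cluster by accessibility at *Pdgfrb* and at the mural cell genes *Acta2* and *Myh11*. All mice were C57BL/6 males at an age of 8 weeks, and the labels name no transgene or deletion. The 7 groups of 3 mice each were day 0 at room temperature (22 °C, day0RT), cold at 6.5 °C for 1, 3 or 7 days (day1C, day3C and day7C), and CL-316,243 (CL), a selective agonist of the β3-adrenergic receptor, at 1 mg/kg for 1, 3 or 7 days (day1CL, day3CL and day7CL). Adipocyte and stromal nuclei of each tissue sample were prepared together.

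Mural cells are the pericytes and smooth muscle cells that wrap blood vessels, and they contract through smooth muscle actin and myosin. Fibroblastic stroma of lymph nodes is another contractile, PDGF receptor positive population, which secretes chemokines and survival factors for lymphocytes. The inguinal fat pad of the mouse holds a lymph node. Adipocyte progenitors are fibroblast-like cells that lie beside vessels and express *Pdgfra*, *Cd34* and *Ly6a*.

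ATAC-seq finds open chromatin as the DNA that Tn5 transposase can reach. Each entry of the deposited matrix says whether a nucleus had reads in a peak (1) or not (0), so a count here is a number of nuclei open at a peak. All nuclei of a cluster within 1 mouse were added up as a library, and a library needed at least 10 nuclei. APC2 gave 19 libraries with 13 to 51 nuclei each (560 nuclei in all). Gene accessibility was the sum over the peaks in the gene body and 2000 bases upstream, given in CPM, the count scaled to the same total of such gene counts in every library. The 19 APC2 libraries held between 30285 gene counts (day1CL mouse 1) and 120057 (day3C mouse 3). A median APC2 nucleus had 1815 open peaks, against 1380 in APC1, 1072 in vascular endothelial cells (VEC), 1632 in the cluster labelled vascular smooth muscle cells (VSMC) and 974 in B cells.

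APC2 nuclei were not spread evenly over the mice. Day1CL mouse 3 had 0 APC2 nuclei among 979 nuclei that were not lymphocytes, which allows a share of up to 0.306%. Day3CL mouse 2 had 2 among 1067, a share of 0.187%. These 2 mice also had the fewest lymphocytes, 11.9% and 14.1% of their nuclei, against 36.8% to 90.8% in the other 19 mice. They gave no APC2 library, so day1CL and day3CL had 2 libraries each in every comparison of accessibility. Barcode strings recur between mice: 151 APC2 nuclei (26.9%) had a barcode that also occurred in another mouse, against 26.8% of all nuclei, and 2 APC2 nuclei shared a barcode with an APC2 nucleus of another mouse.

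The sequences of 4 windows of 200 bases are shown first to illustrate the motif contrast between APC2 and APC1 that is described further on, and were picked because they hold a match. Of the 10 peaks with the largest ratio of APC2 to any other cluster, the *Rgs17* and *Sh3rf3* peaks were the 2 with an NF-kB match. All are from GRCm38 (mm10), forward strand, 5′ to 3′. Capitals mark the motif match, which is an NF-kB consensus in the first 3 windows and the AP-1 consensus TGANTCA in the last. In the *Rgs17* window the NF-kB match shares bases with a TEAD match (ACATTCC on the other strand). The first lies between genes, at -117542 bases from the start of *Rgs17* (upstream), at chr10:6039775-6039974. The second is in an intron of *Sh3rf3* at chr10:58936444-58936643. The third lies 53574 bases downstream of the start of *Cxcl13* at chr5:96010391-96010590. The last, open mainly in APC1, lies at -203486 bases from the start of *Hsf2*, at chr10:57282792-57282991.
Rgs17 window: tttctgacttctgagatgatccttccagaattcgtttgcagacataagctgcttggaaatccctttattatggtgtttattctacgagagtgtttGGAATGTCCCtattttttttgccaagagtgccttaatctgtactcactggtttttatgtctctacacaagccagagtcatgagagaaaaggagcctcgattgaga
Sh3rf3 window: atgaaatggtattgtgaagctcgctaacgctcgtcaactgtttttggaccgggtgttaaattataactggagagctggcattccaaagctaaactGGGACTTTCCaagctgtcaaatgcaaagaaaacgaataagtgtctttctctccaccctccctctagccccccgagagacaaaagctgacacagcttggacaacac
Cxcl13 window: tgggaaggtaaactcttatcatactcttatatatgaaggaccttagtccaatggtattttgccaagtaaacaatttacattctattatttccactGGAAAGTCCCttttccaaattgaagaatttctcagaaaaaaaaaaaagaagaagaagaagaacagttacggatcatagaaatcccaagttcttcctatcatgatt
Hsf2 window: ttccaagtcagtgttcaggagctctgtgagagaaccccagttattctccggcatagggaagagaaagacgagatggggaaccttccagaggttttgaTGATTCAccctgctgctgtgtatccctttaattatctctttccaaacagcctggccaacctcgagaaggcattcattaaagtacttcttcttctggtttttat

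The first window belongs to a peak that was open in 63 APC2 nuclei (11.2%) and in 4 APC1 nuclei (0.602%). The peak of the second was open in 9.96% of APC2 and 0.451% of APC1 nuclei, and the peak of the third in 5.34% of APC2 and 0.150% of APC1 nuclei. The order was the opposite at the last peak, open in 2 APC2 nuclei (0.356%) and in 95 APC1 nuclei (14.3%).

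The label was checked against its 3 markers and against other genes the study used for its progenitor clusters. Because the clusters were made from these same entries, levels in APC2 against other clusters are given as a description without a test, with the number of mice that showed each order. *Acta2*, the smooth muscle actin (chr19:34241090-34255590), ranged from 40.5 to 201 CPM with a median of 94.7 over the 19 APC2 libraries. Its mean was 107 ± 47.4 CPM (SD, n = 19), against 33.4 in APC1, 21.8 in VEC and 7.74 in VSMC, and it was higher in APC2 than in APC1 in 18 of 18 mice with both libraries. *Myh11*, the smooth muscle myosin heavy chain (chr16:14194535-14291372), ranged from 114 to 345 CPM with a median of 231. Its mean of 223 ± 64.1 CPM compared with 67.8 in APC1 and 75.9 in VSMC, and it was again higher in APC2 than in APC1 in 18 of 18 mice. Of all 17173 genes with a peak, 1.00% were higher in APC2 than in APC1 in every mouse with both libraries.

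*Pdgfrb*, the receptor for PDGF-BB on mural and stromal cells, was the least uniform of the 3 markers. It ranged from 30.5 to 467 CPM with a median of 179, and its mean of 187 ± 100 CPM compared with 88.5 in APC1, 46.1 in VEC and 7.35 in VSMC. APC2 was higher than APC1 in 15 mice and lower in 3. The peak at the start of *Pdgfrb* was open in 7.47% of APC2 and 6.77% of APC1 nuclei. The largest difference between them was at an intronic peak, open in 10.5% of APC2 nuclei and 0.301% of APC1 nuclei. That peak lies at -25831 bases from the start of the neighbouring gene *Csf1r*, which encodes a macrophage growth factor receptor, and was open in 3.96% of white adipocytes and 3.82% of macrophages. The *Acta2* gene also had B cell signal, 69.4 CPM, through a peak 1040 bases inside the gene that was open in 4.66% of B cells and 6.23% of APC2 nuclei. The peak over the *Acta2* start itself was open in 42 APC2 nuclei (7.47%), 0.752% of APC1 nuclei and 0.535% of B cells.

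*Tagln*, a smooth muscle actin-binding protein, was at 79.9 ± 32.4 CPM in APC2 and 18.2 in APC1, and was higher in 16 of 18 mice. *Myl9*, a myosin light chain, did not differ in the same way, with 44.1 ± 20.2 CPM in APC2 and 48.1 in APC1. *Pdgfra*, the general progenitor marker, was at 75.9 ± 30.8 CPM in APC2 and 84.8 in APC1, with APC2 higher in 9 mice and lower in 9. *Ebf2*, a factor of committed adipocyte progenitors, was at 108 ± 64.8 CPM in APC2 and 521 in APC1, and lower in APC2 in 18 of 18 mice. *Cd34*, a surface sialomucin of progenitors and endothelium, was at 0 in 15 of 19 APC2 libraries, with a mean of 4.05 CPM against 94.5 in APC1 and 43.0 in VEC. The peak over the *Cd34* start (chr1:194938656-194939104) was open in 0 of 562 APC2 nuclei and in 57 of 665 APC1 nuclei (8.57%). *Ly6a*, which encodes Sca1, was at 0 in 14 of 19 APC2 libraries and had a mean of 4.62 CPM against 51.0 in APC1. Of all genes with a peak, 0.373% were lower in APC2 in every mouse with both libraries.

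**Figure D1:**
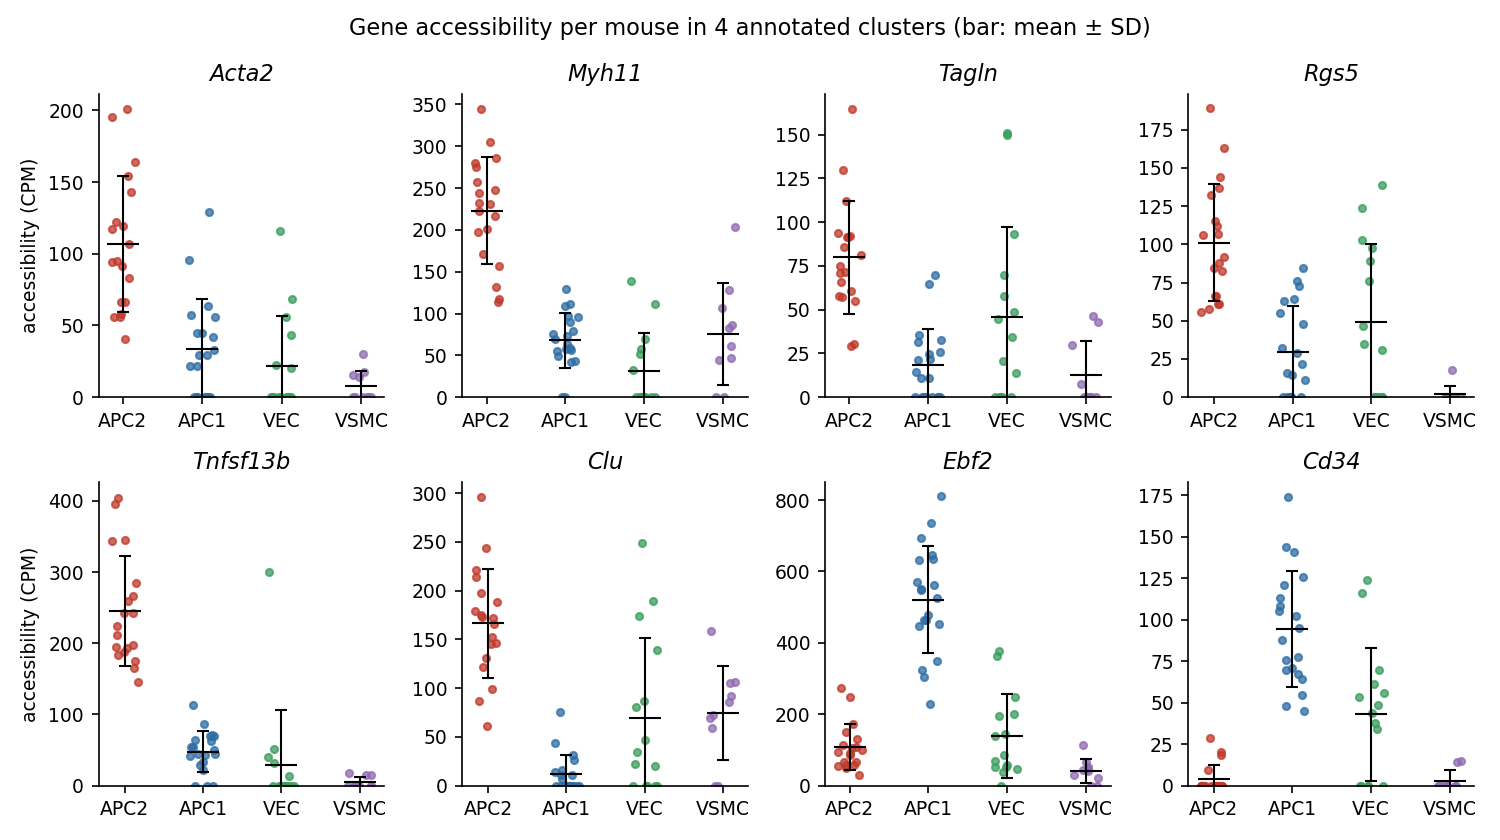
Accessibility (CPM, y axis) of 8 genes in libraries of APC2, APC1, VEC and VSMC; each point is 1 mouse and bars show the mean and SD over mice. APC2 libraries stand at 40.5 to 201 CPM for Acta2 and at 146 to 404 CPM for Tnfsf13b, while 15 of 19 are at 0 for Cd34.

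The markers were extended to lists of genes for each cell type the tissue could hold. Over all 17173 genes, 7.33% had their highest mean CPM in APC2 among the 12 clusters, and 6.88% were at least 2-fold higher in APC2 than in APC1 (ratios had 5 CPM added to both values). The median log2 ratio of APC2 to APC1 over all genes was -0.04. These shares are the background for each count below, and since the clusters were made from these same nuclei and peaks, the counts describe what the cluster is and do not test it.

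Of 14 contractile genes, 4 were highest in APC2 (*Acta2*, *Myh11*, *Tagln* and *Mylk*) and 7 were at least 2-fold above APC1, with a median log2 ratio of 0.79. The summed accessibility of the 14 genes was 1816 ± 176 CPM in APC2 (n = 19), 725 ± 197 in APC1 (n = 20), 799 ± 260 in VEC (n = 15) and 1426 ± 259 in VSMC (n = 10). *Mylk*, myosin light chain kinase, was at 419 ± 111 CPM against 122 in APC1 and 265 in VEC. *Synpo2*, an actin-bundling protein, was at 635 ± 124 CPM in APC2, 211 in APC1 and 662 in VSMC. Some members of the list had very few counts. *Cnn1* (calponin) was at 4.36 CPM in APC2, 3.65 in APC1 and 3.76 in VSMC, and *Actg2* (enteric smooth muscle actin) was at 5.10, 6.17 and 8.00. *Myocd*, the cofactor that drives smooth muscle genes, had 21.8 CPM in APC2 and 35.0 in APC1.

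The cluster labelled VSMC differed from APC2 in the kind of muscle genes it had open. VSMC was high at skeletal muscle genes, with 491 CPM at *Ttn*, 432 at *Mylk4* and 294 at *Ckm*, and its 12 skeletal muscle genes summed to 1973 ± 430 CPM. The same 12 genes summed to 86.0 ± 40.6 CPM in APC2, between 0 and 166 in single libraries, and *Myf6* was at 0 in 19 of 19. *Acta2* was lower in VSMC than in APC2 in 8 of 8 mice with both libraries.

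Pericyte genes had a higher share than contractile genes with their highest level in APC2, 10 of the 13 with a peak, and 5 were at least 2-fold above APC1. Restricting each gene to the peaks at its start gave 6 of 13. The sum was 1106 ± 193 CPM in APC2, 572 ± 175 in APC1, 438 ± 208 in VEC and 414 ± 61.9 in VSMC. *Rgs5*, a regulator of G protein signalling in pericytes, was at 101 ± 38.4 CPM against 29.4 in APC1 and 49.4 in VEC. *Kcnj8* and *Abcc9* encode the 2 subunits of the vascular ATP-sensitive potassium channel. *Kcnj8* was at 93.0 ± 37.7 CPM in APC2 and 26.3 in APC1, and *Abcc9* at 224 ± 58.8 in APC2 and 117 in APC1. *Gucy1a1*, a subunit of the nitric oxide receptor guanylate cyclase, was at 71.2 ± 42.9 CPM against 20.8 in APC1. *Mcam* and *Cox4i2* were low, at 14.0 and 2.85 CPM.

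Lymph node stroma genes had a share highest in APC2 like that of pericyte genes (76.9%). Of 18 genes, 14 were highest in APC2 (77.8%), 9 were at least 2-fold above APC1, and the median log2 ratio to APC1 was 1.03. Gene starts only gave 12 of 18 (66.7%). With TMM scaling over all libraries it was also 12 of 18, against 9 of 13 pericyte genes (69.2%). The sum over the 18 genes was 1460 ± 145 CPM in APC2, between 1057 and 1683 over the 19 libraries, against 646 ± 219 in APC1, 484 ± 199 in VEC, 287 ± 90.6 in VSMC and 206 ± 29.6 in B cells. *Tnfsf13b*, which encodes the B cell survival factor BAFF (chr8:10006467-10039072), ranged from 146 to 404 CPM with a median of 224. Its mean was 245 ± 77.3 CPM in APC2, 47.8 in APC1, 54.8 in dendritic cells and 1.62 in B cells, and no mouse had it lower in APC2 than in APC1. *Clu*, a secreted chaperone of follicular stroma, ranged from 60.9 to 296 CPM, with a mean of 167 ± 55.9 against 11.8 in APC1 and 88.4 in dendritic cells.

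The chemokines of lymph node stroma had few counts. *Cxcl13*, which attracts B cells to follicles (chr5:95956951-95961068), had 26 counts in APC2 and a mean of 21.9 ± 19.8 CPM, against 2.16 in APC1, 0 in VEC and 0 in VSMC. It was higher in APC2 than in APC1 in 14 mice and lower in 0, and 5 APC2 libraries were at 0. *Ccl21a* and *Ccl19*, both ligands of the T cell and dendritic cell receptor Ccr7, had 14 and 8 counts. Each rests on a single peak in a region where genes overlap and near-identical copies of *Ccl21a* exist, so their values are uncertain. *Il7*, a survival factor for T cells, was at 73.4 ± 35.8 CPM against 18.1 in APC1, and higher in 18 of 18 mice. *Tnfsf11* (RANKL) was at 71.5 ± 36.1 against 13.8, *Grem1*, a BMP antagonist, at 23.6 ± 15.3 against 0.548, and *Enpp2* (autotaxin) at 257 ± 78.4 against 120. *Bst1* was at 115 ± 39.7 CPM against 29.5 in APC1, but B cells were higher, at 135. *Il6* was at 37.3 CPM in APC2 and 40.6 in APC1, and *Nkx2-3* was at 0 in 17 of 19 APC2 libraries.

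Lymphocyte genes were measured beside this list, since reads from lymphocytes could reach nuclei of another cluster. None of 10 B cell genes was highest in APC2, and their sum was 391 ± 108 CPM, between 231 and 632 over the libraries, against 355 ± 164 in APC1, 295 ± 63.3 in VSMC and 2471 ± 135 in B cells. *Pax5* had the most, 95.4 CPM against 718 in B cells. The B cell surface genes *Cd79b* and *Ms4a1* were at 3.79 and 4.80 CPM and at 0 in 14 and 15 of 19 libraries. None of 10 T cell genes was highest in APC2 either, with a sum of 442 ± 91.9 CPM (316 to 726), of which *Cd247* made up 238. The T cell sum was 258 ± 163 in APC1, 564 ± 213 in VEC, 178 ± 24.9 in white adipocytes and 2359 ± 252 in CD4 T cells. The part of lymphocyte reads in the APC2 values was not tested. *Cd3g* and *Cd8a* were at 0 in 14 and 16 libraries. The 10 myeloid genes summed to 486 ± 112 CPM in APC2 (284 to 729, with *Cx3cr1* at 250) and 1612 ± 196 in dendritic cells, and *Fcgr1* was at 0 in every APC2 library. *Tnfsf13b*, *Cxcl13* and *Clu* were at 1.62, 0.396 and 1.72 CPM in B cells.

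Adipose progenitor genes were the list with the most genes lower in APC2. Of 18 with a peak, 7 were 2-fold or more lower than in APC1 (*Ebf2*, *Ly6a*, *Cd34*, *Dpp4*, *Pi16*, *Lum* and *Sema3c*), against 6.28% of all genes, and 0 were 2-fold or more higher. Their sum was 1556 ± 222 CPM in APC2, 3250 ± 558 in APC1 and 1753 ± 106 in white adipocytes. *Dpp4* and *Pi16*, which mark the least committed progenitors, were at 40.7 and 3.80 CPM against 208 and 36.4 in APC1. *Fap*, a fibroblast protease, was the 1 gene of the list highest in APC2, at 84.2 ± 43.9 CPM against 61.1 in APC1. *Col3a1*, a fibrillar collagen, was at 73.8 ± 44.3 CPM in APC2 and 141 in APC1. The 12 endothelial genes summed to 505 ± 139 CPM in APC2 and 1975 ± 479 in VEC, with *Pecam1* at 271 and *Tie1* at 0 in every APC2 library. The 10 adipocyte genes summed to 626 ± 147 CPM in APC2 and 2799 ± 335 in white adipocytes, and none was highest in APC2.

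**Figure D2:**
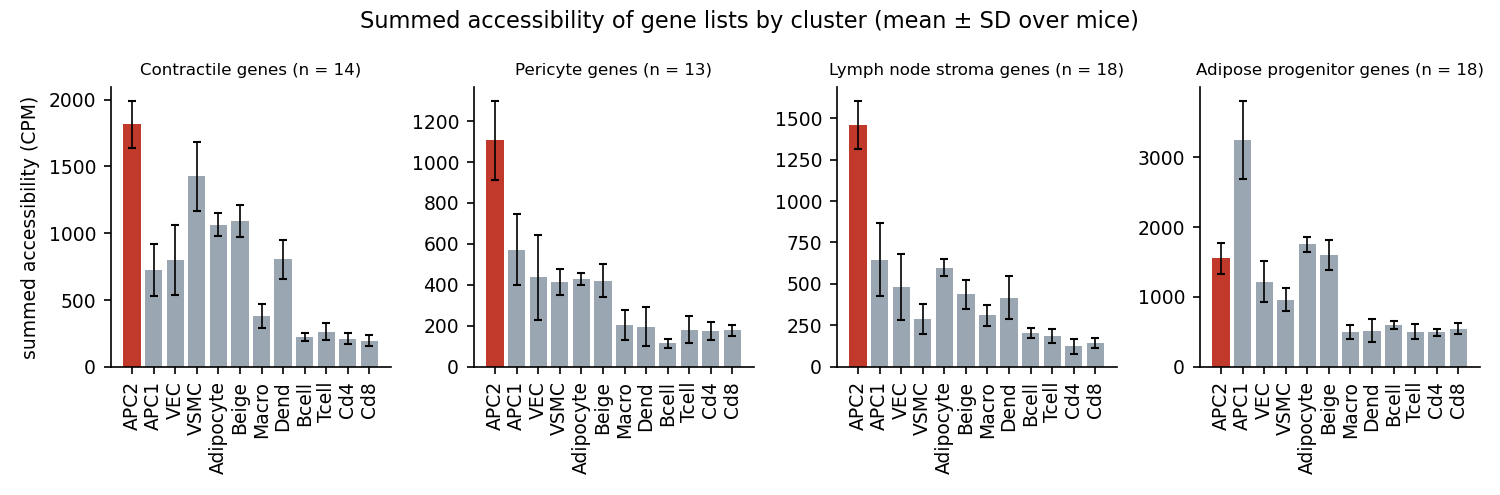
Summed accessibility (CPM, y axis) of the contractile, pericyte, lymph node stroma and adipose progenitor genes in each of the 12 clusters; bars are the mean over libraries (1 per mouse) and whiskers the SD. APC2 has the highest mean for the first 3 lists (1816, 1106 and 1460 CPM) and APC1 for the last (3250 CPM).

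The genes that led APC2 over all other clusters were mostly outside these lists. They were ranked by the ratio of the mean in APC2 to the highest mean of another cluster among genes with at least 50 counts, a choice made from the same values, so the ranking is a description. *Fcgbp*, which encodes a mucus-associated protein that binds the Fc part of IgG (chr7:28071236-28120862), was at 70.7 ± 41.0 CPM in APC2 and 1.44 in APC1, with a ratio of 9.58 to the next cluster. *Ascl3*, a bHLH factor of secretory gland progenitors, was at 79.9 ± 44.1 against 2.54 (ratio 8.97). *Unc5c*, a netrin receptor, was at 246 ± 56.0 against 51.6, and *Arnt2*, a bHLH-PAS factor, at 389 ± 76.7 against 103. *Tacr1*, the substance P receptor, was also among the leading 20, at 95.7 ± 35.0 CPM against 2.82. *Tnfsf13b* was the 1 lymph node stroma gene among the 20, with a ratio of 4.19. The matrix genes *Lama1* (91.0 CPM against 9.35) and *Tnn* (72.2 against 15.5) also stood among them.

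Against APC1 alone, the largest ratio was that of *March4*, a membrane E3 ubiquitin ligase, at 103 ± 36.6 CPM against 0.977 (18.1-fold). Among the 10 largest were *Iqsec3* (12.1-fold) and *Csmd2* (12.4-fold), which are best known from neurons, and both were higher in 18 of 18 mice. At the other end, *Nox4*, a NADPH oxidase of fibroblasts, was at 6.10 CPM in APC2 and 133 in APC1. *Adcy2*, an adenylyl cyclase, was at 10.6 against 182, and *Mfap5*, a microfibril protein, at 4.46 against 108. Each of these was lower in APC2 in 18 of 18 mice. Across the 17173 genes, log accessibility of APC2 correlated with that of APC1 at r = 0.88, VEC at 0.86, white adipocytes at 0.83, VSMC at 0.75 and B cells at 0.68. These values are over genes that share annotation and depth and carry no test.

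Whether the contractile and the lymphoid genes were open in the same nuclei was examined after thinning each nucleus to 1000 open peaks, which kept 415 APC2 nuclei and left out 147. At least 1 of *Acta2*, *Myh11* and *Pdgfrb* was open in 33.5% of them (exact 95% interval 29.0 to 38.3, counting error only), against 12.1% of APC1 nuclei, 10.9% of VSMC and 6.70% of B cells. Without thinning, the shares were 54.8% in APC2 and 22.4% in APC1. At least 1 gene of the whole lymph node stroma list was open in 66.5% of APC2 nuclei (61.7 to 71.0). This share was 35.7% in APC1, 31.1% in VEC, 21.8% in VSMC and 16.0% in B cells. The contrast was larger for a subset of the list, *Tnfsf13b*, *Cxcl13*, *Ccl19* and *Ccl21a*. At least 1 of these was open in 18.3% (14.7 to 22.4), against 3.55% of APC1 and 0.138% of B cells (37.0%, 8.12% and 0.234% without thinning). The mural markers and this subset were both open in 26 nuclei (6.27%), and the product of the single shares was 6.13%. *Acta2*, *Myh11* or *Pdgfrb* was open in 34.2% of the 76 nuclei with an open gene of the subset and in 33.3% of the 339 without. *Cd34*, *Ly6a* or *Ebf2* was open in 9.40% of APC2 nuclei and 39.0% of APC1 nuclei.

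Peaks were compared in the same way. Of 22040 peaks open in at least 20 APC2 nuclei, 2371 (10.8%) were at least 2-fold more accessible in APC2 than in any other cluster and are called leading here. The last peaks inside this limit had ratios of 2.002, 2.001 and 2.000, and the first outside 1.999, 1.999 and 1.998. Leading peaks lay away from gene starts: 3.80% were within 2000 bases of a start, 37.5% in introns and 52.5% between genes, against 39.2%, 22.7% and 27.8% of all peaks open in at least 20 APC2 nuclei. The 2585 peaks leading in APC1 were placed alike, with 3.71% at starts and 53.3% between genes.

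The largest ratio, 9.24, was at a peak between genes, 72350 bases downstream of the start of *Akap11* (chr14:78464117-78464799), open in 77 APC2 nuclei (13.7%) from 18 of 19 libraries and in 1 APC1 nucleus (0.150%). A peak in an intron of *Fcgbp* (chr7:28084217-28084780) was open in 60 APC2 nuclei (10.7%) and in 0 of 665 APC1, 0 of 351 VEC and 0 of 283 VSMC nuclei. A peak 191495 bases downstream of *Cxcl12*, whose product is a chemokine of perivascular stroma, was open in 95 APC2 nuclei (16.9%) and 0.902% of APC1 nuclei. By nearest gene, 31 of the 73 well-open peaks of the lymph node stroma list were leading in APC2, of which 9 were near *Cxcl13*, 5 near *Il7*, 5 near *Tnfsf13b* and 3 near *Grem1*. In the pericyte list it was 13 of 34, with 5 near *Kcnj8*, and in the contractile list 6 of 34. In the progenitor list it was 5 of 54 peaks open in at least 20 APC2 nuclei. Over all such peaks it was 2371 of 22040 (10.8%), so the progenitor count was near that share. Of all 408 peaks nearest to the progenitor genes, 54 were leading in APC1, against 2585 of all 189598 peaks. This APC1 count is over all peaks and is not comparable with the APC2 counts.

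The sequences of the leading peaks were not used to choose the nuclei. Consensus motifs were searched on both strands in the central 300 bases of each peak, and a match describes the letters only. An NF-kB consensus was found in 197 of 2371 peaks leading in APC2 (8.31%), against 28 of 2585 leading in APC1 (1.08%), 2.83% in VEC, 1.26% in VSMC and 11.8% in dendritic cells. It was in 3.53% of the 22040 peaks from which the APC2 leading peaks were drawn and in 1.98% of all 189598 peaks. NF-kB factors act downstream of the lymphotoxin β receptor, through which lymphocytes signal to lymph node stroma. The forkhead motif TGTTTAC was in 8.77% against 3.87% in APC1, 7.17% in VEC, 4.32% of the 22040 peaks and 4.13% of all peaks. The TEAD motif ACATTCC was in 10.5% against 7.81% in APC1, 9.13% in VEC, 5.57% of the 22040 peaks and 4.57% of all peaks. The AP-1 motif TGANTCA, bound by Fos and Jun proteins, showed the opposite order, with 11.1% of peaks leading in APC2, 31.6% of those leading in APC1, 9.02% of the 22040 peaks and 11.8% of all peaks. The CArG box, bound by serum response factor at smooth muscle genes, was in 2.11% against 1.39% in APC1. It was in 1.60% of the 22040 peaks and 1.51% of all peaks. Shares in VEC (1.96%), VSMC (2.02%) and B cells (2.12%) were like that of APC2. The NFAT motif TGGAAA, which can share bases with an NF-kB match as in the *Cxcl13* and *Sh3rf3* windows, was in 44.3% against 33.3% in APC1, 26.5% of the 22040 peaks and 26.8% of all peaks. GC content was similar (medians 45.9% and 46.4%), as was width (460 and 451 bases).

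**Figure D3:**
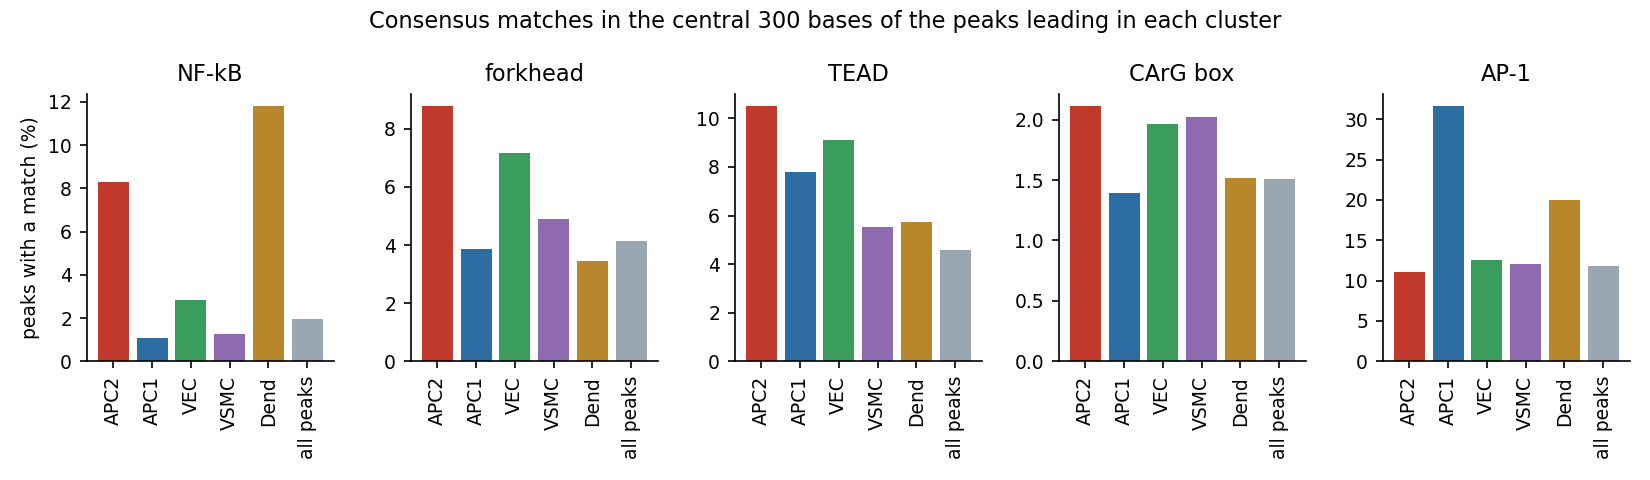
Share of peaks (percent, y axis) with a consensus motif in the central 300 bases, for peaks leading in APC2, APC1, VEC, VSMC and dendritic cells and for all peaks. The NF-kB share is 8.31% in APC2 and 1.08% in APC1, and the AP-1 share 11.1% and 31.6%.

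The lymphotoxin and NF-kB pathway was described by 17 genes. Of these, 5 were at least 2-fold above APC1 (29.4%, against 6.88% of all genes). Only 1 was highest in APC2 (5.88%), near the 7.33% of all genes. The median log2 ratio to APC1 was 0.40. The 5 were the signalling adaptors and inhibitors of cell death *Traf1* (127 ± 46.2 CPM against 30.0), *Birc2* (297 ± 62.7 against 138) and *Birc3* (149 ± 54.4 against 68.9), the kinase *Ikbkb* (86.6 against 36.6) and the subunit *Rel* (17.1 against 5.50). *Ltbr*, the lymphotoxin β receptor, was at 46.1 ± 32.0 CPM against 35.3 in APC1. The sum over the list was 2035 ± 268 CPM in APC2, 1325 ± 200 in APC1 and 3086 ± 235 in dendritic cells. In the Notch pathway, which sets mural identity, 5 of 14 genes were at least 2-fold above APC1, but 2 of 14 when libraries needed at least 20 nuclei or nuclei at least 1000 open peaks. Their sum was 1709 ± 186 CPM in APC2, 1456 ± 218 in APC1 and 1866 ± 326 in VEC. *Dll4* was at 39.4 ± 34.2 CPM against 2.22, *Dll1* at 82.7 ± 28.8 against 22.5 and the receptor *Notch3* at 85.8 ± 48.6 against 38.5.

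Among the PDGF genes, *Pdgfa* was at 93.9 ± 52.4 CPM in APC2 against 14.0 in APC1, while *Pdgfc* and *Pdgfd* were at 16.7 and 5.69 against 115 and 67.8. Of 18 matrix genes, 2 were 2-fold or more higher (*Eln*, elastin, 225 ± 55.5 CPM against 95.7, and *Tnc*, tenascin C, 117 ± 63.9 against 34.1) and 2 were 2-fold or more lower (*Lama2*, 33.1 against 311, and *Postn*, 28.2 against 72.7). Among the adrenergic receptor genes, *Adra2a* was at 31.8 ± 20.1 CPM in APC2 against 5.92 in APC1. *Adrb3*, the target of CL, was at 0 in 14 of 19 APC2 libraries, with 8 counts in all and a mean of 7.11 CPM. Its ratio to the highest other cluster, white adipocytes, was 0.0768.

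Accessibility in APC2 was then compared between groups, which the choice of nuclei did not use. The fit was edgeR's quasi-likelihood test over the 19 libraries, with 2013 genes past the filter on low counts. Cold against day0RT gave 0 of 2013 genes (0%) at a Benjamini-Hochberg adjusted p under 0.05, CL against day0RT gave 0 (0%), and CL against cold gave 0 (0%). At an unadjusted p under 0.05 there were 106, 131 and 106 genes, and DESeq2 called 0 in each, with 45, 61 and 41 at an unadjusted p under 0.05. In simulated data of this size, 42.3% of genes changed by 2-fold and 77.2% of genes changed by 4-fold were called for cold against day0RT. The simulation gave every gene the same spread between mice (dispersion 0.00736) and changed the genes in all treated groups. The shares called among genes that vary more were therefore not estimated.

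*Acta2* was at 195, 122 and 143 CPM in the day0RT mice, at 40.5 to 164 in the 7 CL libraries and at 55.9 to 201 in the 9 cold libraries. The highest libraries of day1C, day3C, day1CL and day3CL were at 91.6, 119, 117 and 94.0 CPM, while day 7 libraries overlapped day0RT. These values rest on few counts, 4 at 122 CPM (day0RT mouse 2), 9 at 119 (day3C mouse 2) and 4 at 117 (day1CL mouse 2). The groups were picked after the values were seen, and the share of all genes that separate them alike was not computed. The log2 fold change of *Acta2* was -0.83 (SE 0.44, edgeR adjusted p = 0.877) in cold and -0.87 (SE 0.48, adjusted p = 0.808) in CL. *Myh11* changed by 0.26 (SE 0.31, adjusted p = 0.950) in cold and -0.03 (SE 0.35, adjusted p = 0.995) in CL on the log2 scale, and *Pdgfrb* by 0.38 (SE 0.38, adjusted p = 0.939) and 0.66 (SE 0.38, adjusted p = 0.820). *Tnfsf13b* was at 195, 396 and 344 CPM at day 0, at 165 and 146 in day1CL, at 193 and 188 in day3CL and at 243, 267 and 197 in day7CL, the last within the day0RT range. Its log2 fold change was -0.61 (SE 0.32, edgeR adjusted p = 0.795) in CL and -0.29 (SE 0.28, adjusted p = 0.939) in cold. None of the tested members of the contractile (4 of 14), pericyte (3 of 14), lymph node stroma (5 of 18), progenitor (5 of 20), NF-kB (9 of 17), Notch (6 of 14) or immediate early (7 of 15) lists passed in either direction in these 3 comparisons. The summed lymph node stroma genes were at 1412 ± 100 CPM in day0RT (n = 3) and between 1346 ± 408 (day1CL, n = 2) and 1518 ± 169 (day7C, n = 3) in the treated groups. Cold and CL share the day0RT mice.

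**Figure D4:**
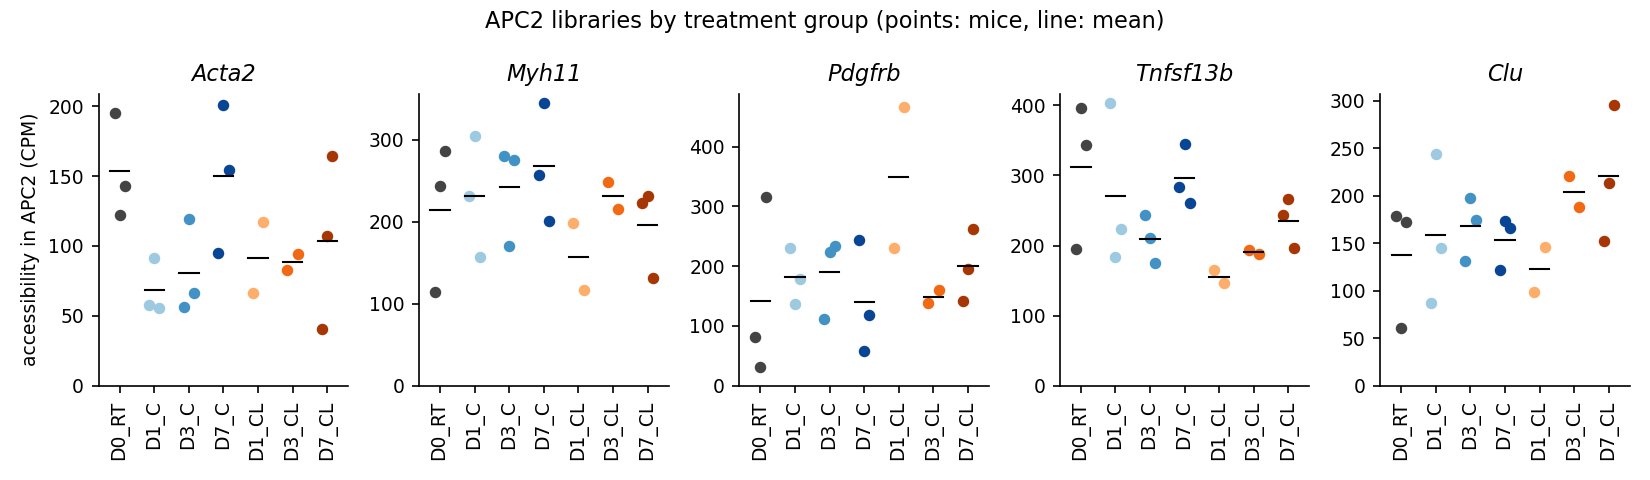
Accessibility (CPM, y axis) of Acta2, Myh11, Pdgfrb, Tnfsf13b and Clu in APC2 by group; each point is 1 mouse, lines are group means, and D0_RT, D1_C and D1_CL stand for day0RT, day1C and day1CL. Day1CL and day3CL have 2 libraries each, and for Acta2 the day0RT libraries (122 to 195 CPM) overlap those of day7C (94.7 to 201 CPM).

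Each treated group against day0RT gave 1 call in 6 comparisons. *Sfi1*, which encodes a centrin-binding protein of the centrosome (chr11:3131850-3193463, 29 peaks), was lower in day3CL (1 of 2013 genes, 0.0497%). It was at 497 and 320 CPM in the day3CL libraries and at 977, 1554 and 430 in day0RT, so 1 day0RT library lay within the day3CL range. The log2 fold change was -1.44 (SE 0.27, edgeR adjusted p = 0.000347). The edgeR adjusted p was 0.795 without day0RT mouse 2 and 0.758 without day3CL mouse 3, where the lone day3CL library is assumed to vary like the other groups. The log2 fold change lay between -1.74 and -1.01 over the 19 fits that left out 1 library, 17 of which kept the call, and DESeq2 called no gene. *Sfi1* was also accessible in every other cluster examined. Its mean was 790 CPM in day0RT and 1121 in day3CL in APC1, 400 and 433 in white adipocytes, and 688 and 773 in B cells. It was lower in day3CL in beige adipocytes (268 and 263), T cells outside CD4 and CD8 (1061 and 932) and VEC (1389 in the only day0RT library, and 1275). These differences in other clusters were not tested. In day3C, *Sfi1* in APC2 had a log2 fold change of -0.92 (SE 0.22, edgeR adjusted p = 0.0566). In the pooled comparisons, the smallest unadjusted p was that of *Sfi1* in cold (log2 fold change -0.76, SE 0.18, adjusted p = 0.0842), *Sfi1* again in CL (-0.74, SE 0.20, adjusted p = 0.269), followed there by *Bmp2k* (1.70, SE 0.46, adjusted p = 0.269) and *Phlpp1* in CL against cold (1.40, SE 0.37, adjusted p = 0.229).

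For single peaks, only 24 passed the filter on low counts. None passed in cold or CL against day0RT or in CL against cold (0% of 24), with 0, 1 and 2 at an unadjusted edgeR p under 0.05. Of the 6 single groups, day1CL had 1 of 24 (4.17%), the peak over the start of *Dclk1*, a doublecortin-like kinase (chr3:55241633-55242980). It was open in 6 and 7 APC2 nuclei of day1CL (156 and 159 CPM of all peak counts) and in 5, 3 and 2 nuclei of day0RT (64.2, 71.0 and 43.9 CPM), with a log2 fold change of 2.08 (SE 0.55, edgeR adjusted p = 0.0133). The fit scaled each library to its counts in the 24 tested peaks, not to all peaks as the CPM values are, so the fold change does not equal the ratio of these CPM values. In the other treated groups the peak ranged from 45.2 CPM (day1C mouse 1) to 198 CPM (day7C mouse 2), with day7CL mouse 3 at 152, so such levels were not limited to day1CL. The call was lost in 12 of 19 fits that left out 1 library. With a minimum count of 5, 4267 peaks were tested and 0 passed.

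The number of APC2 nuclei was then compared between groups, whose labels the choice of nuclei did not use. APC2 made up 1.74 ± 0.827% of nuclei in treated mice (n = 18) and 1.44 ± 0.714% in day0RT (n = 3), a difference of 0.298 percentage points (two-sided exact permutation test, p = 0.559). The groups ranged from 1.08 ± 0.989% (day1CL) to 2.62 ± 0.828% (day1C). The share was 1.39 ± 0.790% in CL (n = 9) and 2.08 ± 0.752% in cold (n = 9), a difference of -0.683 points (two-sided exact permutation test, p = 0.0796). Without day3C mouse 1 the difference was -0.838 points (exact p = 0.0275). Of nuclei that are not lymphocytes, APC2 made up 6.34 ± 4.79% in CL and 7.76 ± 4.00% in cold (exact p = 0.502). In these shares, fewer APC2 nuclei and more of the other nuclei cannot be told apart.

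Across mice, the relation of APC2 to the lymphocyte share was computed with 3 denominators. As a share of all nuclei, APC2 had r = 0.70 over the 21 mice (100000 permutations, p = 0.000570) and rho = 0.44 (p = 0.0479). Over the 19 mice with an APC2 library r was 0.32 (permutation p = 0.184) and rho 0.24 (p = 0.315), so with this denominator the relation rested on the 2 mice that gave no library. As a share of the nuclei that are not lymphocytes, it was higher in mice with more lymphocytes, but this denominator is what lymphocytes leave, so both measures are coupled by construction and the permutations do not take that into account. The 2 mice without an APC2 library (lymphocytes 11.9% and 14.1%) stood far from the rest and were left out. In the other 19, lymphocytes made up 36.8% to 90.8% of nuclei (median 72.6%), and APC2 made up 1.32% to 14.1% of the nuclei that are not lymphocytes (median 6.94%). Day1CL mouse 1 had the highest values of both, with 18 APC2 nuclei among 128 that are not lymphocytes (14.1%, exact 95% interval 8.55 to 21.3). Day3C mouse 1 had the lowest of both, with 13 among 982 (1.32%, 0.707 to 2.25). Pearson's r was 0.76 (100000 permutations, p = 2.0e-05, adjusted p = 1.0e-04 over 5 relations) and Spearman's rho 0.80 (p = 4.0e-05, adjusted p = 0.000200). Leaving out the 2 mice farthest from the median of these 19 gave r = 0.69 (permutation p = 0.00190).

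The same relation was computed for 4 other clusters over the 19 mice, each with the same denominator as APC2. The APC1 share had r = -0.30 (permutation adjusted p = 0.356), VEC 0.15 (adjusted p = 0.523), VSMC -0.20 (adjusted p = 0.497) and white adipocytes -0.67 (adjusted p = 0.00550). Within groups, as deviations from the group mean permuted within groups, APC2 had r = 0.89 over all 21 mice (permutation p = 0.00150, adjusted p = 0.00677). Over the 19 mice it was 0.82 (permutation p = 0.0134, adjusted p = 0.0588), with rho = 0.69 (p = 0.0289, adjusted p = 0.118), so it did not pass the correction without the 2 mice that stood apart. As a share of the 4 stromal and vascular clusters (APC1, APC2, VEC and VSMC), APC2 had r = 0.82 over the 21 mice (permutation p = 2.0e-05) and 0.69 over the 19 mice (permutation p = 0.00146). With B cells in place of all lymphocytes r was 0.71 over the 21 mice (permutation p = 1.0e-04) and 0.60 over the 19 mice (permutation p = 0.00677). The sequencing lane of a nucleus is not given in the annotation used here, so the relation could not be computed within lanes. How much of the lymph node was in each dissected pad was not measured.

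**Figure D5:**
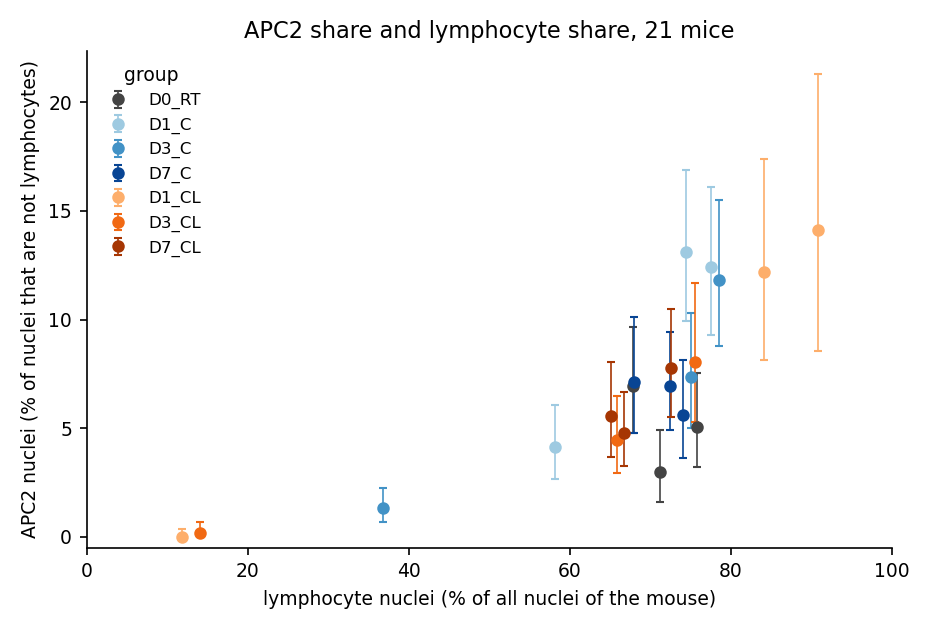
APC2 nuclei in percent of the nuclei that are not lymphocytes (y axis) against lymphocytes in percent of all nuclei (x axis) for the 21 mice, with exact 95% intervals. The 2 mice under 15% lymphocytes sit at 0% and 0.187%, and the mouse with 90.8% lymphocytes is the highest at 14.1%.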

How the data were processed

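The authors merged 2 sequencing runs, aligned reads to mm10 with Bowtie2, removed duplicates per barcode and mitochondrial reads, called peaks with MACS2 per cluster, clustered with Signac and removed doublets. The submitters' notes also name SAMtools. The deposited counts are binary, 189598 peaks by 32552 nuclei with 65588856 entries of 1, and were not normalized by the authors. An entry does not hold the number of reads, so strongly open peaks saturate. The deposited annotation gives the mouse, group and cluster of each nucleus, and the 4 GEO samples are sequencing lanes that no column ties to nuclei.

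Genes were GENCODE vM21 protein-coding genes on GRCm38, 17173 of 21924 with a peak. Members and gene lists were chosen with earlier results of these data known. Named genes were the markers the study shows, the leading 20, the 10 largest and 10 smallest ratios to APC1, members of each list with extreme ratios and genes of smallest p. Other list members named were chosen after their values were seen.

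Groups were compared with edgeR 4.0.16 in R 4.3.3 (TMM, filterByExpr, group means, two-sided) and DESeq2 1.42.0. Shares and correlations used permutation over mice in scipy 1.17.1 and Python 3.11.15. Intervals and floors (3 counts) cover counting error only. The study states that its 3 batches were run independently, but neither the labels nor the annotation used here say which mice formed a batch, so no value was computed within batches. P-values measure the spread between mice. Replicate libraries differed by slightly more than sampling noise (chi-square per degree of freedom 1.02 to 1.23) and came from different mice, so each was counted. Alternatives were other filters, minimum nuclei, deeper nuclei, gene starts only, other denominators, a replicate block and each library left out. The fit was tested on simulated data. A few results are not reported here.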

Additional observations from a re-analysis of the deposited data

How the results depend on the processing

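Of 275 alternatives, 248 left the result on the same side, 23 values moved, 2 fell below the threshold, 1 turned its direction and 1 passed the threshold newly (CL against cold without day3C mouse 1, given above). Cold against day0RT gave 1 gene with at least 20 nuclei per library and 1 with nuclei of at least 1000 open peaks, and 0 to 1 with 1 library left out. CL against day0RT gave 1 gene with at least 20 nuclei, and 0 to 1 with 1 library left out, and CL against cold gave 0 to 1 with 1 library left out. The single groups, 1 call in all, gave 0 with DESeq2, 0 with no filter, 2 with gene starts only, 3 with at least 20 nuclei, 2 with nuclei of at least 1000 open peaks, and 0 to 5 with 1 library left out, with 0 without day3CL mouse 3 and 5 without day7CL mouse 2. Single peaks in cold gave 0 to 1 with 1 library left out. These fits tested other numbers of genes, and the cause was not tested. The replicate number as a block gave the same counts, 0, 0 and 0 genes for the pooled comparisons and 1 for the single groups, and same-numbered libraries did not deviate together (mean correlation -0.000211).

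The treated against day0RT difference in the APC2 share turned to -2.23 points as a share of the 4 stromal and vascular clusters (exact permutation p = 0.853), and ran from 0.00719 to 0.697 points with 1 mouse left out. CL against cold ran from -0.838 to -0.509. Over all 21 mice the relation of APC2 to lymphocyte share had r = 0.79 (permutation p = 1e-05, the smallest possible) and rho 0.85. Leaving out 1 mouse in turn gave r of 0.77 to 0.83. As a share of all nuclei, r was 0.70 over 21 mice, 0.32 over 19 mice and 0.24 without the 2 mice farthest from their median, so the relation fell below the threshold where this denominator and the loss of the 2 mice came together. The values over 19 mice and those of all nuclei were added after the data were seen. Gene starts only left 6 pericyte genes and 12 lymph node stroma genes highest in APC2. A ratio of 4 left 241 leading peaks, and at least 40 open nuclei left 701. Libraries held 13 to 51 nuclei, and 24 peaks passed the count filter, against 4267 with a minimum count of 5.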

Other observations

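Retinoid and lymphatic genes belonged to no comparison above. *Cyp26b1*, which degrades retinoic acid, was at 57.3 ± 39.4 CPM in APC2 (n = 19) against 27.3 in APC1, and 5 peaks nearest to it were leading in APC2. *Aldh1a1*, which makes retinoic acid, was lower in APC2, at 125 ± 67.7 CPM against 275. *Reln*, a matrix protein of lymphatic endothelium and other stroma, was at 61.8 ± 29.8 CPM against 9.15 in APC1 and 26.0 in VEC, while the lymphatic genes *Prox1*, *Lyve1*, *Flt4* and *Mmrn1* were at 9.91, 9.39, 12.7 and 2.05 CPM.

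None of 15 immediate early and cAMP response genes was highest in APC2, against 7.33% of all genes. Their sum was 2240 ± 166 CPM in APC2 and 2247 ± 332 in APC1. *Dusp1* was at 157 ± 66.4 CPM in APC2 and 306 in APC1, *Fosl2* at 205 ± 53.7 against 260 and *Junb* at 187 ± 50.9 against 227. *Pde4b*, a cAMP phosphodiesterase, was at 402 ± 84.6 CPM against 180. It was the 1 gene of the list at least 2-fold higher than in APC1 (6.67%, near the 6.88% of all genes). Among angiogenic genes, *Hgf* was at 44.8 ± 28.4 CPM and at least 2-fold higher than in APC1 (0 of the 10 genes were so with at least 20 nuclei per library), while *Vegfd* was at 46.5 ± 41.1 against 116.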
